A study of Mus musculus with 11 samples.

Results

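Integrins and the other adhesion receptors that leukocytes and their neighbours use were examined in liver RNA. They were taken as every gene of the deposited table whose symbol names an integrin alpha (Itga) or beta (Itgb) subunit, an Icam gene, Vcam1, Madcam1, a selectin, the selectin ligand Selplg or the hyaluronan receptor Cd44. This gave 37 of 31280 genes. The samples were livers of 11 C57BL/6 mice labelled WT, all of which ate a methionine- and choline-deficient (MCD) diet for 8 weeks, a diet used in mice to produce fatty liver with inflammation. In the limonin group, 6 mice were also given limonin, a triterpenoid found in citrus seeds, into the stomach at 100 mg/kg for 4 weeks. In the MCD group, 5 mice were given water by the same route. The comparison asks which liver RNAs differ with limonin under the MCD diet. No livers from a complete diet were analysed here, so no value stands for a healthy liver, and the labels give no sex or age.

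An integrin is a pair of 1 alpha and 1 beta chain, and the pair decides what is bound. Pairs built on Itgb2 are made by leukocytes and bind ICAMs on endothelium, and the pair of Itga4 and Itgb7 binds VCAM-1 or MAdCAM-1. Most pairs built on Itgb1 or with Itgav bind matrix proteins such as fibronectin, laminin, collagen and osteopontin. Selectins start the rolling of leukocytes on the vessel wall by binding sugars on carriers such as PSGL-1, the product of Selplg. The liver sinusoid is a special bed in which rolling is little used and ICAM-1, VCAM-1 and CD44 carry much of the adhesion. In fatty liver with inflammation, these receptors are known for the recruitment of monocytes, neutrophils and lymphocytes, and the matrix-binding integrins for their part in bile duct and stellate cell responses.

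Promoters of 25 of the 37 genes were found in the RefSeq promoter table (GRCm38.p6). The 160 bases before the RefSeq gene start are shown for 4 genes that span the results: Icam1 and Itgax, which were lower in limonin livers, Itgam, the neighbour of Itgax on chromosome 7, and Sele, whose RNA was near 0 in both groups. Capitals mark matches, on either strand, to GGNNNTTCC, the kappaB type, and to GAGGAA, the ETS or PU.1 type. They also mark TGANTCA, the AP-1 type, and TATAAA, the core of the TATA element of basal promoters. The letter N is any base.

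Icam1, chr9:21015780-21015939, plus strand: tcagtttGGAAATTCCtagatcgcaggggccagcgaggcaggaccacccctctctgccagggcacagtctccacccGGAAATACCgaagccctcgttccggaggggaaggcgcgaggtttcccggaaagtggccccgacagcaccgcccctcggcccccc
Itgax, chr7:128129390-128129549, plus strand: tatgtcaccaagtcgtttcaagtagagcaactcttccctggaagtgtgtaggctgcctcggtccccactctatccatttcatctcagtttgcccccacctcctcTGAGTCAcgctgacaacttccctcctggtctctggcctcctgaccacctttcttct
Itgam, chr7:128062480-128062639, plus strand: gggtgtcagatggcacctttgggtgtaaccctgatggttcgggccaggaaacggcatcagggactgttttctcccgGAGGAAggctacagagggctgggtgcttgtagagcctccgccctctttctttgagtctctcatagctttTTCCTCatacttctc
Sele, chr1:164048074-164048233, plus strand: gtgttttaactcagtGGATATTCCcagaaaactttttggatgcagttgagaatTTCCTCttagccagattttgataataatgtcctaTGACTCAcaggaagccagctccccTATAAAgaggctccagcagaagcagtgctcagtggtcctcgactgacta

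Icam1 held GGAAATTCC at 153 bases before the start, which matches the kappaB type on both strands, and GGAAATACC at 84 bases before the start, which matches it on the minus strand. Sele held a kappaB type match at 145, an ETS type match at 107, an AP-1 match at 73 and a TATA box at 49 bases before the start. Itgam held ETS type matches at 84 and 15 bases before the start, and Itgax held 1 AP-1 match at 56 bases. In the 250 bases before the start, the kappaB type was found in 6 of the 25 genes, GAGGAA in 10 and TGANTCA in 3. TATAAA was found in 1 and GGGCGG (the GC box, searched but not capitalised) in 9. Of all 32851 mouse promoters in the table, 15.7% held the first, 23.3% the second, 6.75% the third, 12.4% the fourth and 32.7% the fifth. These shares are per promoter, while a gene with more than 1 listed promoter was counted if any of them matched. Itga3 and Itgb6 held GAGGAA in only 1 of their listed promoters. These matches describe letters in a window and do not show that a factor binds there.

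Expression was given in FPKM, fragments scaled to transcript length and library depth, so levels of different genes can be set side by side. Depth, read from the product of FPKM and transcript length that stood for 1 fragment, was 15350000 to 19770000 fragments in each liver. The number of genes at 1 FPKM or more was 9742 to 11087. Hepatocyte markers were the bulk of the marker signal, with summed FPKM of 38331 to 57026 in limonin livers and 36252 to 44515 in MCD livers. In bulk RNA of this kind, fewer cells of a type and less RNA per cell cannot be told apart.

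For a test, 5 or more libraries had to reach 1 FPKM, and 18 of the 37 adhesion genes did. Of these, 12 were lower in limonin livers and 0 were higher at an adjusted p under 0.05 (limma on log2(FPKM + 1), Benjamini-Hochberg over 10489 genes). The 12 were the leukocyte subunits Itgb2, Itgal, Itgax and Itgb7, the selectin carrier Selplg, Cd44, the endothelial counter-receptors Icam1 and Vcam1, and the matrix-binding alpha subunits Itga3, Itga5, Itga8 and Itga9. The abundant beta subunits Itgb1 and Itgb5, together with Itga1, Itga7, Itgav and Icam2, did not pass. Of all tested genes, 18.7% were lower and 7.24% were higher. At an unadjusted p under 0.05, 1 adhesion gene was higher (Itga7). The median log2 fold change of the 18 genes was -0.59, against -0.07 over all tested genes. These counts cannot be read as a share of the family, because 10 of the 18 reached 1 FPKM in fewer than 5 limonin livers. Of those 10, 7 were among the genes called lower (Cd44, Itga8, Itga9, Itgal, Itgax, Itgb7 and Selplg). Without any filter, 11 of all 37 were lower and 0 higher, where 5.68% of all genes were lower and 1.32% higher. These 11 included Itgb4, Itgb6 and Itgb8, and left out Itga5, Itga8, Itgal and Itgb2. By the q under 0.05 in the authors' deposited table, 19 were lower and 1 (Itga7) was higher, where 7.44% of all genes were lower and 8.57% higher.

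The mean FPKM was lower in limonin livers for 32 of the 37 genes and higher for 5. The same share over all genes was not computed, and the median log2 fold change of all tested genes was also negative (-0.07). All 6 limonin livers lay below all 5 MCD livers for 5 of the 37 (Itga2b, Itgb6, Itgb7, Itgb8, Selplg), where 4.76% of all genes did so, and for 2 of the 18 tested genes, where 8.33% of tested genes did so. The count of 12 genes called lower depended on MCD 1 and MCD 2: without MCD 2 it was 9 of 18, where 10.3% of tested genes were lower, and without both it was 1 (Itgb7), where 3.15% were. With a filter at 5 FPKM it was 2 of 4 tested (Icam1, Itga5), where 17.0% of tested genes were lower. Scaling the libraries by median ratio, by quantiles or to equal summed FPKM left 12, 10 and 11 of the 18 genes lower, where 15.1%, 15.4% and 10.5% of tested genes were lower in that order. Of all called genes, 27.9% were higher in limonin livers without such scaling, and 48.1%, 52.9% and 49.6% with the 3 scalings in that order.

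**Figure D1:**
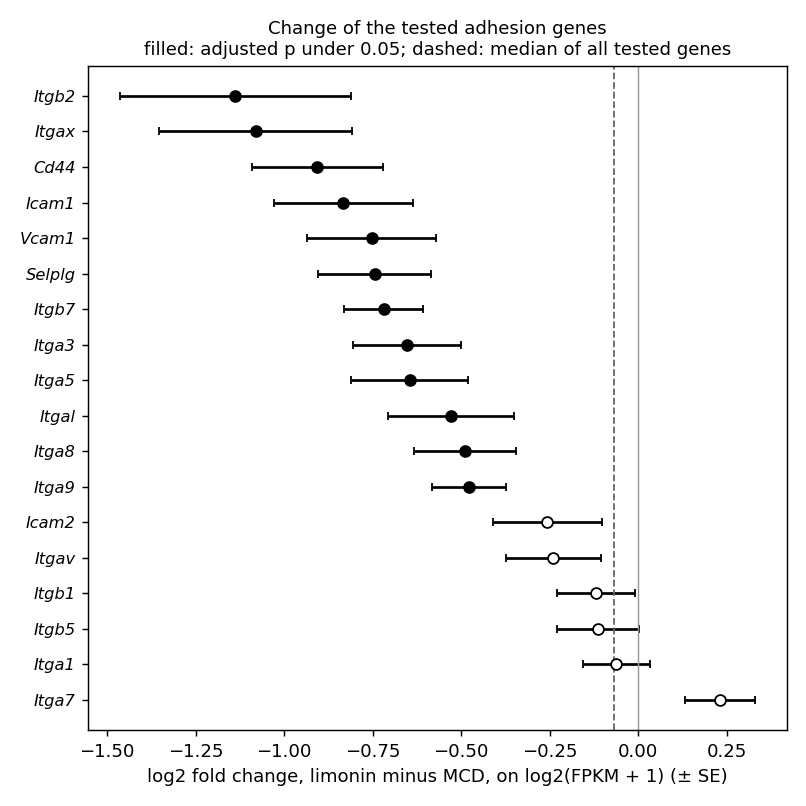
The log2 fold change of each of the 18 tested adhesion genes, limonin minus MCD, on the log2(FPKM + 1) scale, with bars of 1 SE; filled points have an adjusted p under 0.05 and the dashed line is the median of all tested genes (-0.07). The 12 filled points lie between -1.14 (Itgb2) and -0.48 (Itga9), and the 6 open points between -0.26 and 0.23.

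The beta 2 integrins are the leukocytes' own. Itgb2, the shared beta chain of LFA-1, Mac-1 and their relatives (chr10:77530252-77565708, GRCm38, plus strand), had a lowest, median and highest level of 2.36, 3.39 and 4.57 FPKM in limonin livers, and 9.13, 11.7, 4.58, 4.09 and 19.7 FPKM in MCD livers 1 to 5. Limonin 3 lay above MCD 4 and just below MCD 3, while MCD 5 was far above every other liver, and 5 of 6 limonin livers lay below all MCD livers. The fold change of Itgb2 was -1.14 ± 0.33 on the log2 scale (SE, adjusted p = 0.0262, limma). The call was lost without limonin 2, limonin 6, MCD 1 or MCD 2, with an adjusted p of up to 0.0744, and it rested on the filter, since with no filter the adjusted p was 0.0630.

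Itgax, the alpha chain CD11c of dendritic cells and of macrophages that take up lipid (chr7:128129547-128150657, plus strand), had a lowest, median and highest level of 0.580, 1.01 and 1.69 FPKM in limonin livers, and 4.42, 4.32, 1.5, 1.71 and 6.59 FPKM in MCD livers. Limonin livers averaged 1.07 ± 0.431 FPKM (SD, n = 6) and MCD livers 3.71 ± 2.13 FPKM (SD, n = 5). The MCD livers split into 2 low (MCD 3 and 4) and 3 high, and the highest limonin liver, limonin 3, stood between the 2 low ones. Itgax fell by 1.08 ± 0.27 on the log2 scale (SE, adjusted p = 0.0147, limma), and no single library left out ended the call. Itgal, the alpha chain of LFA-1 that binds ICAMs (chr7:127296260-127335138, plus strand), had a lowest, median and highest level of 0.798, 1.21 and 1.67 FPKM in limonin livers, and 2.04, 2.62, 1.48, 1.33 and 3.79 FPKM in MCD livers. The groups overlapped, with 3 of 6 limonin livers below all MCD livers. The fold change of Itgal was -0.53 ± 0.18 on the log2 scale (SE, adjusted p = 0.0431, limma). It did not pass in 8 of 11 fits that left out 1 library, which were those without limonin 2, 3, 4, 5 or 6 or MCD 1, 2 or 5, with an adjusted p of up to 0.112.

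Itgam, the alpha chain CD11b of Mac-1 on monocytes and neutrophils, was too low for the filter. It had a lowest, median and highest level of 0.116, 0.312 and 0.441 FPKM in limonin livers, and 1.51, 1.03, 0.372, 0.417 and 2.27 FPKM in MCD livers. Only MCD 1, MCD 2 and MCD 5 reached 1 FPKM, and MCD 3 and MCD 4 lay within the limonin range. In the fit without a filter, Itgam had a fold change of -0.64 ± 0.21 (SE, adjusted p = 0.0875, limma). Itgad, the alpha chain of CD11d, reached no more than 0.0579 FPKM in any liver.

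Itgb7, the beta chain that pairs with Itga4 on gut-homing lymphocytes and with Itgae on lymphocytes within epithelium (chr15:102215995-102231944, minus strand), had a lowest, median and highest level of 0.727, 0.867 and 1.26 FPKM in limonin livers, and 1.94, 3.02, 2.13, 1.77 and 2.06 FPKM in MCD livers. The groups did not overlap. Limonin livers averaged 0.925 ± 0.184 FPKM (SD, n = 6) and MCD livers 2.18 ± 0.489 FPKM (SD, n = 5), and the fold change was -0.72 ± 0.11 on the log2 scale (SE, adjusted p = 0.00165, limma). Itgb7 was the 1 gene of the 12 that passed in every fit that tested it, including the fit without MCD 1 and MCD 2 (adjusted p = 0.0227, limma). It reached 1 FPKM in 1 of 6 limonin livers and in all 5 MCD livers, so it met the filter through the group where it was high. With no filter the adjusted p of Itgb7 was 0.0133 (limma). Its partners were low. Itga4 had a lowest, median and highest level of 0.0805, 0.168 and 0.247 FPKM in limonin livers, and 0.330, 0.458, 0.277, 0.218 and 0.416 FPKM in MCD livers, with 4 of 6 limonin livers below all MCD livers (adjusted p = 0.0836 with no filter, limma). Itgae had 0.134 to 0.207 FPKM in limonin livers and 0.126 to 0.218 FPKM in MCD livers, which are nearly the same ranges.

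**Figure D2:**
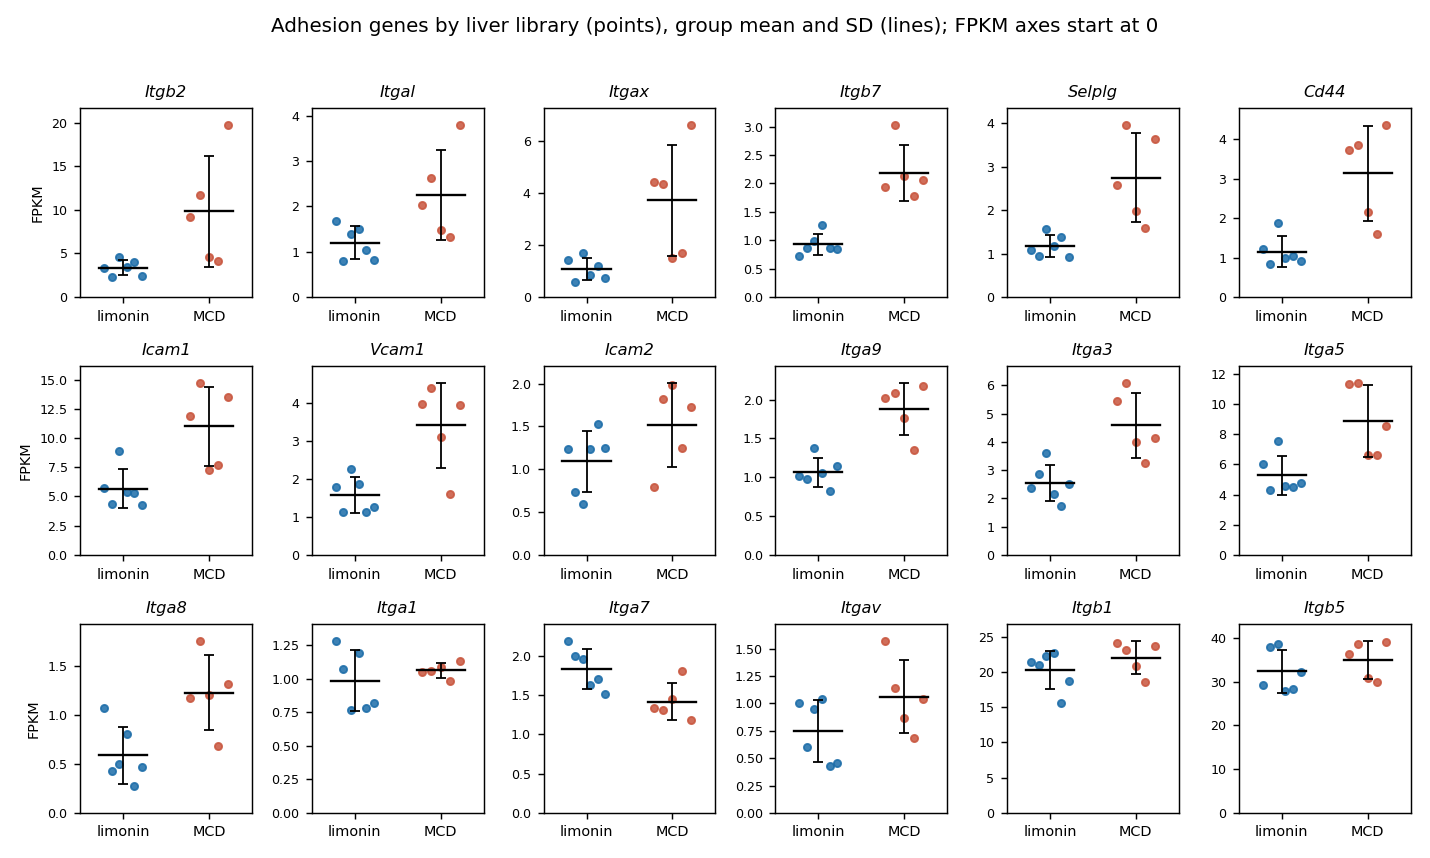
FPKM of each of the 18 tested adhesion genes by liver, 6 limonin livers on the left and 5 MCD livers on the right of each panel, with the group mean and SD as lines and every axis starting at 0. Itgb7 and Selplg are the 2 genes whose groups do not overlap; in Itgb2, Itgax, Cd44 and Icam1, MCD 3 and MCD 4 lie low and the other 3 MCD livers high, and Itgb1 and Itgb5 span like ranges in both groups.

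Of the selectin system, the carrier was lower, and Selp and Sele did not reach the filter. Selplg, which encodes PSGL-1 on leukocytes (chr5:113818536-113832644, minus strand), had a lowest, median and highest level of 0.924, 1.13 and 1.57 FPKM in limonin livers, and 2.57, 3.96, 1.98, 1.59 and 3.64 FPKM in MCD livers. The groups did not overlap, though limonin 3 (1.57 FPKM) and MCD 4 (1.59 FPKM) nearly touched. Selplg had a fold change of -0.74 ± 0.16 on the log2 scale (SE, adjusted p = 0.00618, limma), kept in all 11 fits that left out 1 library. Selp, P-selectin of platelets and endothelium, had a lowest, median and highest level of 0.519, 0.819 and 0.933 FPKM in limonin livers, and 0.15, 1.31, 0.934, 1.22 and 0.890 FPKM in MCD livers. Its lowest value of all was MCD 1, and the other MCD livers overlapped the limonin range or lay above it. Sele, E-selectin of activated endothelium, reached no more than 0.0678 FPKM in any liver.

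Cd44, the hyaluronan receptor by which leukocytes are held in sinusoids and which stellate and bile duct cells also make (chr2:102811141-102901665, minus strand), had a lowest, median and highest level of 0.844, 1.01 and 1.89 FPKM in limonin livers, and 3.74, 3.85, 2.15, 1.59 and 4.36 FPKM in MCD livers. Limonin 3 was the 1 limonin liver above an MCD liver (MCD 4). Limonin livers averaged 1.15 ± 0.384 FPKM (SD, n = 6) and MCD livers 3.14 ± 1.20 FPKM (SD, n = 5), and Cd44 fell by 0.91 ± 0.19 on the log2 scale (SE, adjusted p = 0.00516, limma). The call was kept in all 11 fits that left out 1 library.

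On the endothelial side, Icam1 and Vcam1 fell and Icam2 did not pass. Icam1, the inducible ligand of the beta 2 integrins (chr9:21015985-21028817, plus strand), had a lowest, median and highest level of 4.26, 5.37 and 8.90 FPKM in limonin livers, and 11.9, 14.7, 7.26, 7.67 and 13.5 FPKM in MCD livers. Limonin 3 (8.90 FPKM) lay above MCD 3 and MCD 4, and the other 5 limonin livers lay below all MCD livers. The fold change of Icam1 was -0.83 ± 0.20 on the log2 scale (SE, adjusted p = 0.00995, limma). Vcam1, the inducible ligand of the Itga4 integrins (chr3:116109949-116129688, minus strand), had a lowest, median and highest level of 1.12, 1.53 and 2.27 FPKM in limonin livers, and 3.98, 4.40, 3.10, 1.61 and 3.95 FPKM in MCD livers. MCD 4 alone lay within the limonin range. Vcam1 fell by 0.75 ± 0.18 on the log2 scale (SE, adjusted p = 0.0106, limma). Exons of both genes overlap exons of genes on the other strand (Gm47079 at Icam1, Gm43109 at Vcam1), and whether counting used the strand is not stated in the labels.

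Icam2, which resting endothelium makes at all times, had a lowest, median and highest level of 0.590, 1.24 and 1.52 FPKM in limonin livers, and 0.788, 1.82, 1.99, 1.24 and 1.73 FPKM in MCD livers. The groups overlapped widely, and the fold change was -0.26 ± 0.15 on the log2 scale (SE, adjusted p = 0.230, limma). Icam4, the red cell ligand, had 0.324 to 0.686 FPKM in limonin livers and 0.234 to 0.390 FPKM in MCD livers (adjusted p = 0.272 with no filter, limma). Icam5, known from neurons, had 0.0477 to 0.484 FPKM in limonin livers and 0.319 to 0.746 FPKM in MCD livers (adjusted p = 0.0741 with no filter, limma). Madcam1, the gut ligand of the Itga4 and Itgb7 pair, reached no more than 0.152 FPKM in any liver.

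Of 16 tested endothelial markers, 2 were lower, 1 was higher and 13 did not pass. Of all tested genes, 18.7% were lower and 7.24% higher, so this count does not set endothelial markers apart. The summed FPKM of the endothelial markers was 70.1 to 101 in limonin livers and 67.5 to 127 in MCD livers, and the groups overlapped. As a share of that sum, Icam1 was 5.43% to 10.98% in limonin livers and 6.57% to 17.6% in MCD livers, and Vcam1 was 1.20% to 2.80% in limonin livers and 1.52% to 5.90% in MCD livers. The ratio of each ligand to Cdh5 (VE-cadherin, the junction protein of endothelium) was tested by exact permutation, two-sided, on log2 ratios with 0.1 FPKM added, and adjusted over the 12 ratios tested. Icam1 to Cdh5 was 0.79 lower in limonin livers (exact permutation p = 0.0303, adjusted p = 0.0519), with 4 of 6 below all MCD livers. Vcam1 to Cdh5 was 0.90 lower in limonin livers (exact permutation p = 0.0260, adjusted p = 0.0519), with 3 of 6 below all MCD livers. Neither passed, but with 1 FPKM added in place of 0.1 both did (adjusted p = 0.0445 for each, exact permutation). With 1 library left out, Icam1 to Cdh5 passed in 3 and Vcam1 to Cdh5 in 2 of 11 comparisons. Icam2 to Cdh5 (a difference of -0.29, adjusted p = 0.281, exact permutation) did not pass. As a percentage of the summed pan-leukocyte markers described below, Icam1 was 8.60% to 13.68% in limonin livers and 6.52% to 11.24% in MCD livers. Vcam1 was 1.804% to 3.482% of that sum in limonin livers and 1.905% to 3.773% in MCD livers. Of the summed stellate cell and fibroblast markers, Vcam1 was 0.796% to 1.73% in limonin livers and 0.883% to 1.653% in MCD livers. The groups overlapped for each of these shares, which were added after the data were seen. The part of the other makers of Icam1 and Vcam1, among them macrophages and stellate cells, in these differences was not tested.

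Of the integrins that bind matrix, 4 alpha subunits fell while Itgb1, the beta chain they pair with, did not pass. Itgb5 did not pass either. Itgb1, the most widely shared beta chain (chr8:128685654-128733200, plus strand), had a lowest, median and highest level of 15.6, 21.2 and 22.7 FPKM in limonin livers, and 24.1, 23.0, 20.8, 18.6 and 23.7 FPKM in MCD livers. Only limonin 5 lay below all MCD livers, and the fold change was -0.12 ± 0.11 on the log2 scale (SE, adjusted p = 0.446, limma). Itgb5, the partner of Itgav in binding vitronectin (chr16:33829665-33949338, plus strand), was the highest of the 37 genes, with a lowest, median and highest level of 27.8, 30.7 and 38.6 FPKM in limonin livers, and 36.4, 38.7, 30.8, 30.0 and 39.0 FPKM in MCD livers. Its ranges overlapped over most of their length, and the fold change was -0.11 ± 0.12 on the log2 scale (SE, adjusted p = 0.498, limma), or 0.00679 with libraries scaled to equal summed FPKM.

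Itga5, the fibronectin receptor chain (chr15:103344286-103366763, minus strand), had a lowest, median and highest level of 4.27, 4.66 and 7.56 FPKM in limonin livers, and 11.3, 11.4, 6.63, 6.61 and 8.52 FPKM in MCD livers. Limonin 3 lay above MCD 3 and MCD 4 and the other 5 below all MCD livers. Itga5 fell by 0.65 ± 0.17 on the log2 scale (SE, adjusted p = 0.0138, limma), and with no filter its adjusted p was 0.0514. Itga3, a laminin receptor chain of epithelia such as bile ducts (chr11:95044474-95076801, minus strand), had a lowest, median and highest level of 1.74, 2.43 and 3.62 FPKM in limonin livers, and 5.46, 6.07, 4.00, 3.24 and 4.15 FPKM in MCD livers. Again limonin 3 alone reached into the MCD range. Itga3 fell by 0.65 ± 0.15 on the log2 scale (SE, adjusted p = 0.00899, limma).

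Itga9, which binds osteopontin and tenascin (chr9:118606690-118901003, plus strand), had a lowest, median and highest level of 0.821, 1.03 and 1.38 FPKM in limonin livers, and 2.03, 2.09, 1.77, 1.35 and 2.17 FPKM in MCD livers. Limonin 3 (1.38 FPKM) was just above MCD 4 (1.35 FPKM). The fold change of Itga9 was -0.48 ± 0.10 on the log2 scale (SE, adjusted p = 0.00675, limma). Itga8, a chain of mesenchymal cells that binds nephronectin (chr2:12106632-12301922, minus strand, with E030013I19Rik on the other strand), had a lowest, median and highest level of 0.271, 0.482 and 1.07 FPKM in limonin livers, and 1.18, 1.76, 1.21, 0.683 and 1.32 FPKM in MCD livers. Limonin 1 and limonin 4 lay above MCD 4, so the groups overlapped. Its fold change was -0.49 ± 0.14 on the log2 scale (SE, adjusted p = 0.0251, limma), lost without limonin 2, MCD 2 or MCD 5 with an adjusted p of up to 0.0800.

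Itga1, a collagen receptor chain of sinusoids and stellate cells, had a lowest, median and highest level of 0.767, 0.949 and 1.28 FPKM in limonin livers, and 1.05, 1.06, 1.09, 0.982 and 1.14 FPKM in MCD livers. The MCD livers lay close together inside the limonin range, and the fold change was -0.06 ± 0.10 on the log2 scale (SE, adjusted p = 0.666, limma), with the opposite sign by quantile normalization (0.0909) and equal summed FPKM (0.00208). Itga7, a laminin receptor chain of muscle cells, had a lowest, median and highest level of 1.51, 1.83 and 2.19 FPKM in limonin livers, and 1.34, 1.31, 1.44, 1.80 and 1.18 FPKM in MCD livers. MCD 4 was the 1 MCD liver inside the limonin range, and 3 of 6 limonin livers lay above all MCD livers. Its fold change was 0.23 ± 0.10 on the log2 scale (SE, adjusted p = 0.0981, limma). Itga7 was higher by median-ratio scaling (log2 fold change 0.29, adjusted p = 0.0273, limma), by quantile normalization (0.36, adjusted p = 0.0152, limma) and by the authors' deposited table (q = 0.00725), and Mettl7b overlaps it on the other strand.

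Of the remaining partners of Itgb1, Itga2, a collagen receptor chain, had 0 to 0.0383 FPKM in limonin livers and 0.0232 to 0.15 FPKM in MCD livers. Itga10 and Itga11, collagen receptor chains of cartilage and fibroblasts, reached no more than 0.432 FPKM and 0.205 FPKM in any liver. Itga6, a laminin receptor chain, had 0.119 to 1.68 FPKM in limonin livers and 0.169 to 0.863 FPKM in MCD livers, and limonin 3 alone exceeded 1 FPKM. In the fit with no filter, these 4 genes had adjusted p of 0.0941 (Itga2), 0.354 (Itga10), 0.116 (Itga11) and 0.723 (Itga6) by limma.

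Itgav, the alpha chain that pairs with Itgb1, Itgb3, Itgb5, Itgb6 or Itgb8 and that can free TGF-beta from its latent form, had a lowest, median and highest level of 0.430, 0.776 and 1.04 FPKM in limonin livers, and 1.57, 1.14, 0.869, 0.683 and 1.04 FPKM in MCD livers. The groups overlapped, and the fold change was -0.24 ± 0.13 on the log2 scale (SE, adjusted p = 0.203, limma). The epithelial beta partners were below the filter. Itgb6, which epithelia switch on after injury, had a lowest, median and highest level of 0.00776, 0.0128 and 0.0275 FPKM in limonin livers, and 0.318, 0.203, 0.111, 0.0534 and 0.169 FPKM in MCD livers. All limonin livers lay below all MCD livers, and the mean of the limonin group was 0.0943 of the MCD mean, although the lowest values rest on a handful of fragments.

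Itgb8, which also frees TGF-beta, had a lowest, median and highest level of 0.0168, 0.0359 and 0.0599 FPKM in limonin livers, and 0.247, 0.165, 0.102, 0.104 and 0.0823 FPKM in MCD livers. Itgb4, which pairs with Itga6 to fix epithelia to laminin, had a lowest, median and highest level of 0.183, 0.258 and 0.528 FPKM in limonin livers, and 1.39, 1.29, 0.718, 0.520 and 0.958 FPKM in MCD livers. Itgb8 did not overlap between groups, and in Itgb4 limonin 3 alone (0.528 FPKM) reached above MCD 4 (0.520 FPKM). In the fit with no filter, Itgb4 had a fold change of -0.60 ± 0.12 (SE, adjusted p = 0.0229, limma). By the same fit, Itgb6 had -0.20 ± 0.05 (adjusted p = 0.0335, limma) and Itgb8 -0.13 ± 0.03 (adjusted p = 0.0437, limma), on a scale that compresses values under 1 FPKM.

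The platelet integrin has Itga2b as its alpha and Itgb3 as its beta chain. Itga2b had a lowest, median and highest level of 0.376, 0.521 and 0.637 FPKM in limonin livers, and 0.919, 1.33, 0.670, 0.682 and 1.16 FPKM in MCD livers. The groups did not overlap, with limonin 6 just below MCD 3 and MCD 4 (adjusted p = 0.0549 with no filter, limma). Itgb3, which endothelium also makes, had 0.413 to 0.748 FPKM in limonin livers and 0.514 to 0.703 FPKM in MCD livers, with the MCD range inside the limonin range. Of platelet markers, 2 were tested: Pf4 was lower (log2 fold change -1.26, adjusted p = 0.00253, limma) and Clec1b did not pass (-0.28, adjusted p = 0.212, limma). The summed FPKM of the 10 platelet markers was 3.19 to 5.33 in limonin livers and 6.36 to 12.1 in MCD livers, without overlap, and its part in the Itga2b difference was not tested.

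**Figure D3:**
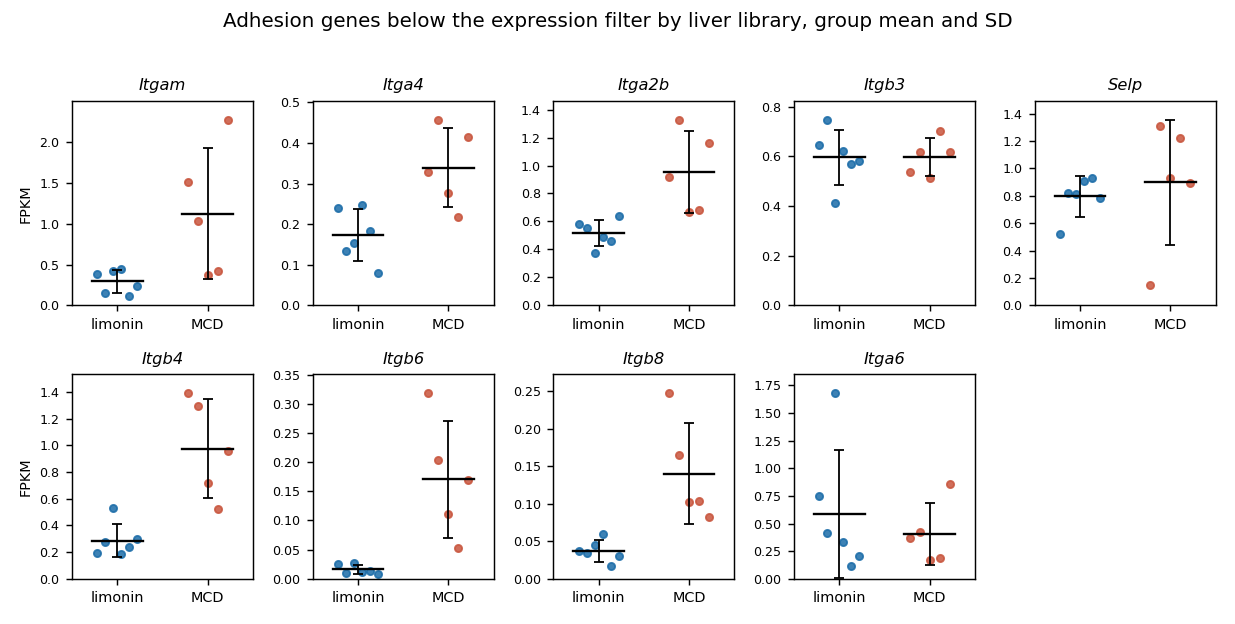
FPKM by liver for 9 adhesion genes that did not reach the filter, limonin livers left and MCD livers right in each panel, with group mean and SD and axes from 0. Itga2b, Itgb6 and Itgb8 do not overlap between groups, Itgam is high in 3 of 5 MCD livers, and Itgb3 spans 0.413 to 0.748 FPKM in limonin livers and 0.514 to 0.703 FPKM in MCD livers.

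Ratios within a library show how the chains of a pair moved against each other. Of 37 ratios planned, 12 had both genes above the filter, and 4 passed at an adjusted p under 0.05 (exact permutation, two-sided). Each of the 4 set an alpha chain already called lower on its own against Itgb1, whose fold change was -0.12. These ratios therefore largely restate those calls and are not separate support for them. Itga8 reached 1 FPKM in 1 limonin and 4 MCD livers, and Itga9 in 4 limonin and 5 MCD livers. Itga9 to Itgb1 was 0.0463 to 0.0620 in limonin livers and 0.0729 to 0.0914 in MCD livers, without overlap. On the log2 scale this ratio was 0.64 lower (exact permutation p = 0.00216, the smallest that the 462 divisions of 6 and 5 livers can give, adjusted p = 0.0260). Itga3 to Itgb1 was 0.0955 to 0.162 in limonin livers and 0.175 to 0.264 in MCD livers, also without overlap, a log2 difference of -0.70 (exact permutation p = 0.00433, adjusted p = 0.0260). Itga5 to Itgb1 differed by -0.61 with 5 of 6 limonin livers below all MCD livers (adjusted p = 0.0260, exact permutation), and Itga8 to Itgb1 by -0.87, again with 5 of 6 below (adjusted p = 0.0325, exact permutation).

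Without MCD 2, none of the 12 ratios passed, with adjusted p of 0.0571 for Itga9 and 0.0762 for Itga3 (exact permutation). With 210 divisions left, a ratio that alone reaches the smallest p cannot pass after adjustment over 12 ratios. Without MCD 4, which leaves the same 210 divisions of the livers and the same smallest p of 0.00476, 7 of the 12 passed. Itga5 to Itgb1 passed in 4 and Itga8 to Itgb1 in 3 of 11 such comparisons. The other 8 ratios included Itga7 to Itgb1 (0.48 higher, adjusted p = 0.0519, exact permutation), Itga1 to Itgb1 (0.003, adjusted p = 0.981, exact permutation) and Itgb5 to Itgav (0.36, adjusted p = 0.268, exact permutation). Within the beta 2 family, Itgal to Itgb2 was 0.51 higher in limonin livers (adjusted p = 0.0617, exact permutation) and Itgax to Itgb2 differed by -0.25 (adjusted p = 0.202, exact permutation), and neither passed. With a pseudocount of 1, Itgal to Itgb2 passed (adjusted p = 0.0445, exact permutation).

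**Figure D4:**
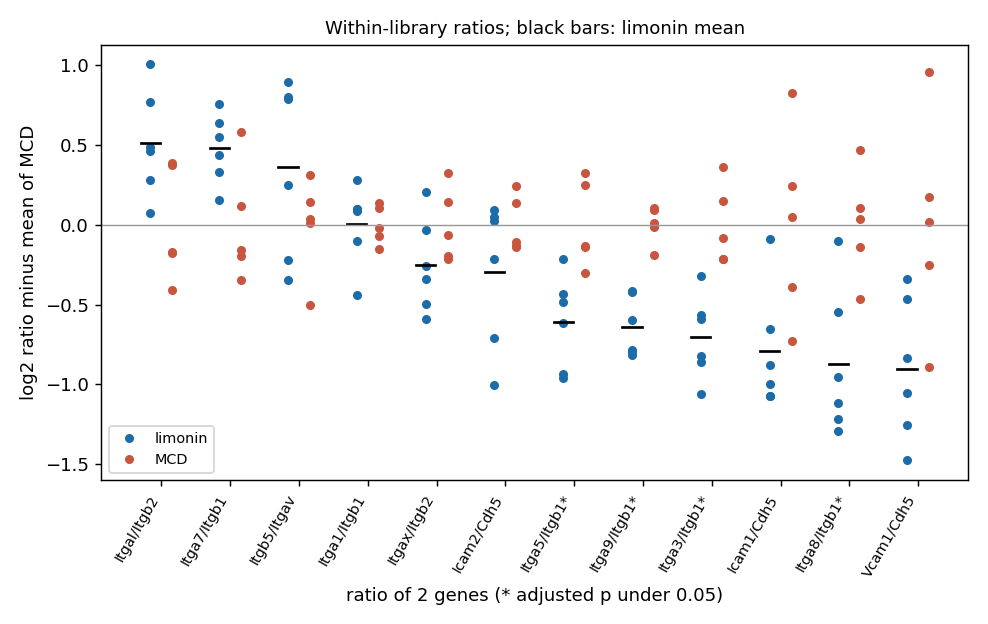
Log2 ratios of 2 genes within each library, less the mean of the MCD livers, for the 12 ratios tested; limonin livers stand left of MCD livers, black bars are limonin means and an asterisk marks an adjusted p under 0.05. The limonin means of the 4 marked ratios lie between -0.87 (Itga8 to Itgb1) and -0.61 (Itga5 to Itgb1), and Itga9 and Itga3 to Itgb1 do not overlap.

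The make-up of the integrin pool is given as shares of summed FPKM, with no test. Summed over all beta chains, FPKM were 49.7 to 67.4 in limonin livers and 55.8 to 86.3 in MCD livers. Itgb1 and Itgb5 made up 88.4% to 93.2% of that sum in limonin livers, with a median of 90.7%, and 72.7% to 87.0% in MCD livers, with a median of 81.7%. Itgb2 made up 3.73% to 8.19% in limonin livers and 7.33% to 22.8% in MCD livers. Summed over all alpha chains, FPKM were 13.7 to 22.9 in limonin livers, with a median of 16.1, and 20.6 to 35.7 in MCD livers, with a median of 34.4. Itga5 held 26.9% to 33.1% of the alpha sum in limonin livers and 24.1% to 32.9% in MCD livers, so its share overlapped although its level fell.

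Among the 12 genes called lower, limonin 3 was the highest limonin liver in 9, and MCD 4 the lowest MCD liver in 10. MCD 3 and MCD 4 were the 2 lowest MCD livers in 10 of the 12, and the highest was MCD 2 in 7 and MCD 5 in 5. In 10 of the 12 the highest limonin liver lay above the lowest MCD liver. The same counts over all genes were not computed, so they cannot be read as a trait of the adhesion genes. Calls over the whole table also depended on single livers. Of all tested genes, 18.7% were lower with all livers, 10.3% without MCD 2 and 3.15% without MCD 1 and MCD 2.

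**Figure D5:**
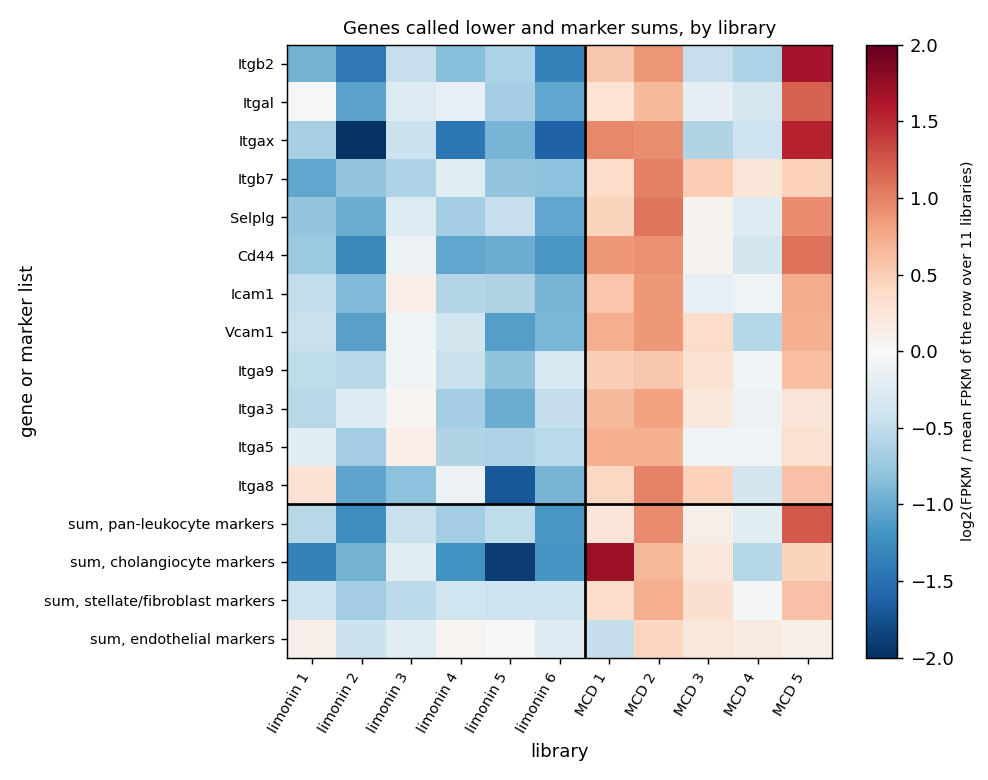
Each row is a gene called lower or the summed FPKM of a marker list, each column a liver (limonin 1 to 6, then MCD 1 to 5), and colour is log2 of the level over the row's mean across the 11 livers. MCD 2 and MCD 5 are the highest of the rows for Itgb2, Itgal and the pan-leukocyte sum, MCD 3 and MCD 4 sit near or below the mean in those rows, and limonin 3 is the highest limonin liver in 9 of the 12 gene rows.

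Leukocyte markers moved beside the leukocyte receptors. Of 8 tested pan-leukocyte markers, 7 were lower and 1 did not pass, with Coro1a, Rac2, Cd52 and Laptm5 at log2 fold changes of -1.30, -1.01, -1.61 and -1.06. The summed FPKM of the 10 markers was 60.0, 37.2, 65.1, 54.5, 62.0 and 39.6 in limonin livers 1 to 6, and 106, 170, 95.9, 75.2 and 208 in MCD livers 1 to 5. The sums did not overlap, no marker was at 0 in every liver, and Ptprc (CD45) was below 1 FPKM in all 11. As a percentage of that sum, a comparison added after the data were seen, Itgb2 was 5.48% to 7.02% in limonin livers and 4.78% to 9.5% in MCD livers. Selplg was 1.82% to 2.55% in limonin livers and 1.75% to 2.44% in MCD livers, and Itgb7 1.21% to 2.33% in limonin livers and 0.991% to 2.35% in MCD livers. Itgal was 1.68% to 2.78% in limonin livers and 1.54% to 1.93% in MCD livers, with 5 of 6 limonin livers above all MCD livers. Itgam was 0.188% to 0.809% in limonin livers and 0.388% to 1.43% in MCD livers, Itgax 1.52% to 2.59% in limonin livers and 1.56% to 4.19% in MCD livers, and Cd44 1.66% to 2.90% in limonin livers and 2.10% to 3.54% in MCD livers. The groups overlapped for each of these 7 receptors, for Itgal through limonin 5 alone. Tyrobp alone made up 29.9% of the marker sum.

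By class of leukocyte, 8 of 11 tested monocyte and macrophage markers were lower (Csf1r, Fcgr1, Trem2 and Cd68, -0.87 to -1.33), with sums of 70.3 to 144 in limonin livers and 132 to 554 in MCD livers. This count was 2 without MCD 2, 4 without limonin 2 or MCD 1, and 5 without MCD 5. Of 9 Kupffer cell markers, 3 were lower (C1qa, C1qb, C1qc, -1.05 to -1.14) and Slc40a1, the iron exporter, was higher (0.64), with 1 lower without MCD 2 and 5 without MCD 1. Of 4 neutrophil markers, 3 were lower (Retnlg, Csf3r and S100a9, -0.60 to -1.11) and S100a8 did not pass (-1.01, adjusted p = 0.0528, limma), with 0 lower without MCD 2. The 5 tested B cell markers were lower (among them Ighm, Cd79b, Jchain and Cd79a, -0.53 to -1.02), with 2 to 4 lower in the fits that left out 1 library. The 5 tested dendritic cell markers were lower (among them H2-Aa, Cd74, Ccr7 and H2-Ab1, -0.68 to -1.35), in every such fit. Of 2 T and NK cell markers, Trbc2 was lower (-0.57) and Trac did not pass (-0.38, adjusted p = 0.118, limma). These counts are set in part by the filter, since some markers reached 1 FPKM in fewer than 5 limonin livers and were tested because MCD livers reached it. This held for 3 of the 11 monocyte and macrophage markers (Fcgr1 and Trem2 of those named), 2 of the 4 neutrophil markers (Retnlg and Csf3r), 3 of the 5 B cell markers (Cd79b, Jchain and Cd79a), 1 of the 5 dendritic cell markers (Ccr7) and 1 of the 2 T and NK cell markers (Trac). The part of each class in the receptor differences was not tested.

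Markers of cells known to make the matrix-binding chains also differed. Of 12 tested bile duct markers, 11 were lower (Muc1, Epcam, Bicc1 and Cldn7, -0.91 to -1.61), with 7 lower without MCD 1 or without MCD 2, and their sum was 37.6 to 120 in limonin livers and 95.0 to 467 in MCD livers. The filter bears on this count too, since 5 of the 12, among them Muc1 and Bicc1, reached 1 FPKM in fewer than 5 limonin livers and in all MCD livers. Much of the bile duct sum was Spp1, with a mean of 34.8 FPKM in limonin livers and 152 FPKM in MCD livers. As a percentage of the bile duct sum without Spp1, Itgb6 was 0.0258% to 0.0944% in limonin livers and 0.125% to 0.277% in MCD livers and did not overlap. Itgb4 (0.673% to 1.078% in limonin livers and 1.07% to 1.48% in MCD livers), Itgb8 (0.0766% to 0.22% in limonin livers and 0.127% to 0.242% in MCD livers) and Itga3 (6.37% to 8.61% in limonin livers and 4.76% to 7.58% in MCD livers) overlapped. Of 15 tested stellate cell and fibroblast markers, 12 were lower (Vim, Des, Col1a2 and Pdgfrb, -0.74 to -1.47), with sums of 116 to 142 in limonin livers and 183 to 311 in MCD livers and no overlap. As a percentage of that sum, Itga8 was 0.193% to 0.763% in limonin livers and 0.374% to 0.565% in MCD livers. Endothelial markers included Egfl7 (-0.55) and Eng (-0.43), which were lower, Kdr (0.31), which was higher, and Robo4 (-0.31, adjusted p = 0.148, limma), with 0 lower without limonin 6, MCD 2 or MCD 3. Of 16 hepatocyte markers, 4 were higher (Cps1, Fga, Alb and Hnf4a, 0.45 to 1.38) and 0 lower.

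Genes that act with the receptors were read from 5 lists, none of which held any of the 37 genes. Of 32 tested genes for integrin activation and adhesion adaptors, 13 were lower, 0 higher and 19 did not pass, with a median log2 fold change of -0.22. The 4 with the smallest p were Flna, the actin linker filamin A (-1.0), Fermt3, the kindlin of blood cells (-0.86), the kinase Syk (-0.76) and the exchange factor Vav1 (-0.78), each with adjusted p between 0.00218 and 0.00515 (limma). The count was 6 without MCD 2 and 8 without MCD 5, and 6 of the 32, among them Fermt3, Syk and Vav1, reached 1 FPKM in fewer than 5 limonin livers. Of 16 tested genes for endothelial junctions and transmigration, 4 were lower, 0 higher and 12 did not pass, with a median of -0.27. These 4 were Sirpa, the myeloid receptor for CD47 (-1.35), Stab1, a scavenger receptor of sinusoids (-0.69), Mcam (-0.28) and Pvr (-0.38), and the count was 2 without limonin 1, limonin 2, limonin 6 or MCD 2.

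The integrins' matrix ligands changed in both directions. Of 21 tested, 14 were lower, 5 were higher and 2 did not pass, with a median of -0.75, and 12 to 14 were lower when 1 library was left out. Lamb2 (-0.87) and Hspg2 (-0.73), of basement membranes, Tgfb3 (-0.92) and Adam15 (-0.63) had the smallest p. Of the 21, 4 reached 1 FPKM in fewer than 5 limonin livers, Tgfb3 and Adam15 among them. Osteopontin, Spp1, which binds Itga9, fell by 1.92 on the log2 scale (limma); it is also a bile duct marker. The higher genes were the fibrinogen chains Fga (1.38), Fgb (0.96) and Fgg (1.16), Fn1 (0.70) and Adam9 (0.62), of which fibrinogen and plasma fibronectin are made by hepatocytes. The call of Adam9 (adjusted p = 0.0362, limma) was lost without limonin 1, 2, 3 or 4 or without MCD 2, 3, 4 or 5, with an adjusted p of up to 0.0863. The named ligands beyond the first 4 were chosen after their values were seen.

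Of 12 tested selectin ligand enzymes and carriers, 1 was lower, 0 higher and 11 did not pass, with a median of 0.05. The count was 2 without limonin 2 or without limonin 5. Cd24a, a carrier for P-selectin that bile duct cells also make, was lower (-1.58, adjusted p = 0.00995, limma). Glce (0.37), Podxl (-0.27) and Glycam1 did not pass (adjusted p = 0.0671, 0.0714 and 0.0983, limma), and Glycam1 was listed at 0 in limonin 4, 5 and 6. Of 8 tested hyaluronan and Cd44 partner genes, 3 were lower, 1 higher and 4 did not pass, with a median of -0.17. Ezr (-1.36) and Msn (-0.87), which tie CD44 to actin, and Srgn, a proteoglycan that CD44 binds (-0.60), were lower, and Rdx, the third member of the ezrin family, was higher (0.39, adjusted p = 0.0337, limma).

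Of the 57 list and marker genes named by smallest p that were called, 18 lost the call in some fit that left out 1 library, and all 18 did so without MCD 2. For Trem2, Cd68, C1qc, Retnlg and Csf3r this was the 1 such library. For Mcam, Pvr, Rdx, C1qb, S100a9, Trbc2, Jchain, Cd79a, Egfl7, Eng, Kdr, Alb and Hnf4a it held for 1 to 7 further libraries as well. Their highest adjusted p lay between 0.0556 and 0.122 (limma).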

How the data were processed

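Poly(A) RNA of 11 livers (6 limonin, 5 MCD) was sequenced with a kit that marks strand, per the labels' protocols. The submitters' processing notes name cutadapt 1.9, HISAT2 2.0.4, StringTie 1.3.4d and the human build GRCh38, while the gene identifiers are mouse ones. The deposited table holds the authors' FPKM for every gene and library. It also gives, per the file headers, the authors' fold change, the log2 of it, a p-value and a q-value for every gene. Their test is not stated in the labels, and q was the Benjamini-Hochberg adjustment of p in all 31280 genes, to within 1e-06. The deposited fold change was within 1% of the ratio of group means in 26019 of these genes. With FPKM alone, no count model and no counting intervals could be used. Nothing in the labels says more than that each library is a separate replicate mouse, so p-values measure the spread between these libraries.

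Tests used log2(FPKM + 1), which understates the change of low genes, and the 10489 of 31280 genes in which 5 or more libraries reached 1 FPKM. The contrast, limonin minus MCD, was fitted in R 4.3.3 by limma 3.58.1 (trend, robust, two-sided) over all of these genes, with Benjamini-Hochberg adjustment at 0.05, checked on simulated data. Ratios of 2 genes used 0.1 FPKM as pseudocount and exact permutation. Gene positions are from GENCODE M21 (GRCm38), in which 31191 identifiers were found; promoters are from RefSeq (GRCm38.p6). The genes examined and all lists were chosen with earlier results of these data known. Named were all tested adhesion genes and, of each list, the 4 tested genes with the smallest p; 1 adhesion gene below the filter is not reported here. Alternatives were other filters, pseudocounts, scalings, variance models and weights, the replicate number as a block, libraries left out and the authors' q; levels per marker sum were added after the data were seen.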

Additional observations from a re-analysis of the deposited data

Results flagged for a closer look

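In groups of 4 to 10 livers, a highest or lowest liver was picked out when its gap to the next liver, divided by the range of its group, passed Dixon's 95% critical value. Chance picks about 1 in 20 groups, and 3 of the 36 groups examined (18 genes in 2 groups) were picked. Limonin 3 was high for Cd44, at 1.889 FPKM, with a gap of 0.631 of the limonin range. Limonin 3 was also high for Icam1, at 8.901 FPKM, with a gap of 0.684 of the limonin range. MCD 2 was high for Itgb7, at 3.025 FPKM, with a gap of 0.716 of the MCD range. Cd44, Icam1 and Itgb7 were called lower in limonin livers both with and without the liver in question (limma, highest adjusted p over all 11 fits without 1 library 0.0190, 0.0335 and 0.00527). The cause was not tested.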

How the results depend on the processing

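Of 12 adhesion genes called lower, 9 kept the call in all 11 fits without 1 library, and the count in those fits was 9 to 12. It was 2 of 4 tested with a filter at 5 FPKM, 5 of 18 with the replicate block (Cd44, Itga3, Itga9, Itgb7, Selplg), where 8.53% of tested genes were lower, 1 without MCD 1 and MCD 2, and 19 by the authors' deposited q. The count called higher was 1 of 18 (Itga7) under median-ratio scaling, where 1470 of 10489 tested genes were higher. By quantile normalization it was also 1 of 18 (Itga7), where 1813 of 10489 were. By the authors' deposited q it was 1 of 37 (Itga7), where 8.57% of all genes were. Ratios called were 4, 7 with a pseudocount of 1, and 0 (without MCD 2) to 7 (without MCD 4) when 1 library was left out; for these comparisons 210 or 252 divisions of the livers remain and the smallest p is 0.00476 or 0.00794. Signs that turned belonged to values that were not called. The log2 fold change of Itga1 was 0.0909 by quantile normalization, 0.00208 with equal summed FPKM and 0.00491 without limonin 5 and limonin 6. That of Itgb5 was 0.00679 with equal summed FPKM. Itgax to Itgb2 was 0.0578 with a pseudocount of 1, and Itga1 to Itgb1 was -0.00954 with a pseudocount of 0.01 and -0.0528 to 0.0922 when 1 library was left out. The causes were not tested. Across all other values of single genes and ratios, 520 kept their side of the threshold, 63 lost a call and 12 gained one. Livers with the same replicate number had correlations of -0.235 to 0.204 in their deviations from the group means. Such correlations cannot exclude that the numbers stand for a shared batch or other pairing. Depth limits the 19 genes below the filter, of which the highest single value was 2.27 FPKM, and the low alpha chains in ratios.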
